A study of Mus musculus with 12 samples.

Results

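The genes described here are 45 cell cycle and DNA replication genes, listed by name as a module. They were read in 12 bulk RNA sequencing libraries of mouse cells described as myeloid. Each of the 45 symbols belonged to 1 of the 54104 mouse Ensembl genes in the deposited expression matrix, and all 45 passed the filter on low values. By function, 24 are genes of mitosis, 13 are genes of S phase, when DNA is copied, and 8 control G1, the phase in which a cell either commits to division or stays out of the cycle. The list is one of names and uses no threshold on these values, but it was drawn up with earlier results of these data known. The libraries fall into 4 groups of 3, which pair the label Ly6C or Ly6G with spleen or tumor as the tissue. The cells are described as PMN-MDSCs and M-MDSCs (polymorphonuclear and monocytic myeloid-derived suppressor cells) of mice. These immature myeloid cells accumulate in tumor-bearing animals, and the surface proteins Ly6G and Ly6C are commonly used to separate them. In the tumor libraries leukocyte genes were low and the keratin gene Krt8 was high, as given below. Tumor and spleen are therefore compared as libraries, and their cell content was not tested. The labels give neither strain, age, tumor model, sorting gate nor treatment for any group, and nothing ties a replicate number to an animal, so p-values measure the spread between these libraries.

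A dividing cell first makes D cyclins and E cyclins, which release E2F transcription factors from the retinoblastoma proteins. E2F factors then switch on the genes that load the MCM helicase and copy DNA. The genes of mitosis are switched on later. Their regulators include the DREAM and MuvB complexes, which bind promoter elements called CHR, and NF-Y, which binds the CCAAT box. The inhibitors Cdkn1a (p21) and Cdkn1b (p27) hold cyclin-dependent kinases back. In bone marrow, granulocyte precursors divide up to the myelocyte stage, and neutrophils that have matured no longer divide.

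The promoters of the mitosis and S phase genes differ more in CHR and E2F letters than in the CCAAT box, and 5 stretches are shown before the values. RefSeq promoter windows (GRCm38.p6, 250 bases before to 50 after a gene's start) were matched for 36 of the 45 genes. Ccna2, Aurkb, Kif20a, Tpx2, Mcm4, Gins2, Ccne2, Ccnd1 and Ccnd2 had no match. Each line holds the 200 bases before the start, read 5′ to 3′ along the gene's strand. Capitals mark the letters searched on either strand, which were TTTGAA or alternatively TTTAAA for the CHR core and CCAAT for the box of that name. In every window E2F sites were searched as TTTGGCG, also as TTTCCCG, and also with the letters TTTCGCG. The letters searched for CHR and CCAAT share no overlap, and neighbouring E2F matches on opposite strands can run together. The first 3 genes are mitosis genes, the last 2 are MCM helicase genes. Their positions are chr7:122159235-122159434, plus strand for Plk1, chr11:99024190-99024389, minus strand for Top2a, chr4:118437344-118437543, minus strand for Cdc20, chr1:128359706-128359905, minus strand for Mcm6 and chr8:75109309-75109508, plus strand for Mcm5.
Plk1: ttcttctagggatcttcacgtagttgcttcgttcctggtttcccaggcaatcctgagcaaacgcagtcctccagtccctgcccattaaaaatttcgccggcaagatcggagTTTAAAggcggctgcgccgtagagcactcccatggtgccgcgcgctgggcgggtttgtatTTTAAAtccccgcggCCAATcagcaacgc
Top2a: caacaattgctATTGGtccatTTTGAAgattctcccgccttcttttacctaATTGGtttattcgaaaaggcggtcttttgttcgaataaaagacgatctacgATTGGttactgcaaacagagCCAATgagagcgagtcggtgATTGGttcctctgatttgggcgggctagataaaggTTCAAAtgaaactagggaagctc
Cdc20: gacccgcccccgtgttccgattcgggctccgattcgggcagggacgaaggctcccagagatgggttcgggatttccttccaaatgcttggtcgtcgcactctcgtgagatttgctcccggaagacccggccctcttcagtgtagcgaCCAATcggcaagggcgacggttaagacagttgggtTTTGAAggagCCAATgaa
Mcm6: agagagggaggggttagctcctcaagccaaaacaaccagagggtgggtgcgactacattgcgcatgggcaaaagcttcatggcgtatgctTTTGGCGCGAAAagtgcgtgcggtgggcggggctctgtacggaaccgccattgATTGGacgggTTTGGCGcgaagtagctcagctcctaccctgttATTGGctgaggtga
Mcm5: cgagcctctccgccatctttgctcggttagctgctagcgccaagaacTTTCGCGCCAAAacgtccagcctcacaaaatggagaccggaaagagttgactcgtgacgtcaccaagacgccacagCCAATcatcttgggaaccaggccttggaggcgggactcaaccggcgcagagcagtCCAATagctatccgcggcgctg

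In the Plk1 line a CHR core starts 29 bases before the gene's start and a CCAAT box 14 bases before it. In Cdc20 the CHR core starts 18 bases before the start, between CCAAT boxes at 53 and 8 bases. Top2a carries a CHR core 23 bases before its start and several CCAAT boxes in both orientations. Mcm6 holds no CHR core in its window and E2F letters starting 110, 105 and 47 bases before the start. Its CCAAT boxes start 57 and 14 bases before it. Mcm5 holds E2F letters starting 153 and 148 bases before its start and CCAAT boxes at 77 and 22 bases. A CHR core of the Mcm5 window starts 221 bases before the start, outside the line shown. For Mcm6 and Mcm5 the bases after the start were not found near the start of a GENCODE transcript. The same held for Aurka, Mki67, Kif23 and Kif11, so distances in these windows depend on the start chosen. Among the mitosis genes with a window, 18 of 20 held a CHR core (90%) and 18 of 20 a CCAAT box, and 17 of 20 held both (85%). Of the S phase genes, 3 of 11 held a CHR core (27.3%), 8 of 11 a CCAAT box (72.7%) and 6 of 11 an E2F match (54.5%). Only 4 of the 20 mitosis genes held an E2F match (20%). Over all 27025 genes with a window the shares were 30.6% for CHR, 41.1% for CCAAT, 13.4% for both together and 6.38% for E2F. Of all 32851 windows of that length, 27.6% held a CHR core, 37.4% a CCAAT box and 5.58% E2F letters. Of the 5 G1 control genes with a window, 2 held a CHR core, 2 a CCAAT box and none E2F letters. These are matches of letters, and no measurement of binding belongs to them.

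Levels are FPKM, fragments relative to gene length and to all mapped fragments, so levels of different genes can be compared per length. Changes are differences of log2(FPKM + 1) between groups ± SE from limma, a linear model fitted to 13610 genes, with n = 3 libraries per group. On this scale changes of genes with low values are understated. A gene is said to have risen or fallen where its Benjamini-Hochberg adjusted p was under 0.05. Total FPKM was 331681 to 449309 per library, and 10379 to 12337 genes reached 1 FPKM. Depth in fragments is not given by the files.

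The tumor libraries differed from the spleen libraries in much more than these genes. Of all genes tested 46.2% rose and 30.5% fell in Ly6C tumor, and 51.5% rose and 24.7% fell in Ly6G tumor. The 20 pan-leukocyte genes listed all fell in tumor in both labels (median change -3.66 in Ly6C and -2.63 in Ly6G), and their summed level was 4204 to 4883 FPKM in Ly6C spleen against 182 to 366 in Ly6C tumor, and 5167 to 5341 in Ly6G spleen against 446 to 766 in Ly6G tumor. Ptprc, which encodes the leukocyte surface protein CD45, was 26.3 to 52.5 FPKM in spleen and 2.59 to 14 in tumor. Ly6g was 131 to 209 FPKM in Ly6C spleen and 591 to 717 in Ly6G spleen, but 11.8 to 13.8 in Ly6C tumor and 31.5 to 54.1 in Ly6G tumor. Ly6c2 did not separate the labels, at 223 to 272 FPKM in Ly6C spleen, 169.5 to 237 in Ly6G spleen, 6.35 to 8.16 in Ly6C tumor and 5.31 to 7.8 in Ly6G tumor, with overlap in each tissue. The epithelial keratin Krt8 was at most 0.263 FPKM in spleen and 356 to 770 in tumor. Fibroblast genes rose for 5 of 8 tested in Ly6C tumor and 7 of 8 in Ly6G tumor. Genes near 0 in spleen could pass the filter on low values only through tumor, so these counts were partly fixed in advance. The summed level of the 9 fibroblast genes listed was 1.89 to 2.4 FPKM in Ly6C spleen and 193 to 365 in Ly6C tumor. In Ly6G it was 4.14 to 6.44 in spleen and 137 to 329 in tumor. Primary granule genes, which mark the dividing promyelocyte stage, fell for 8 of 8 in both labels (median -4.16 in Ly6C and -3.40 in Ly6G), and their sum was 8.05 to 11.3 FPKM in Ly6C tumor and 8.68 to 24.9 in Ly6G tumor. Secondary granule genes, of the myelocyte stage, fell for 9 of 9 in both (median -7.25 and -5.75), and mature neutrophil genes for 8 of 9 as deposited, with a median that turned to 0.50 in Ly6C and 0.22 in Ly6G when rescaled to the pan-leukocyte genes. With that rescaling 6 of 8 primary and 8 of 9 secondary granule genes still fell in both labels. Cebpe is counted in both of these lists. B cell genes fell for 10 of 10 in both labels, and erythroid genes for 9 of 11 in Ly6C and 10 of 11 in Ly6G, against 8 and 9 B cell and 3 and 8 erythroid genes with it. Mitochondrial transcripts took 1.68% to 2.87% of FPKM in spleen and 3.07% to 11.9% in tumor. Their part in the changes of the cell cycle genes was not tested. In bulk samples fewer cells of a type and less RNA per cell cannot be told apart.

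The direction of the tissue changes depended on the scaling. As deposited, the median change of all genes tested between tumor and spleen was 0.27 in Ly6C and 0.43 in Ly6G. When libraries were put on 1 common level of the pan-leukocyte genes, by geometric mean, it was 3.19 and 2.33, and all 45 cell cycle genes were then higher in tumor in both labels. Read against the median of all genes, the mitosis genes lay lower in tumor under each of the 6 scalings tried. Their median minus that of all genes was -1.45 as deposited and -0.82 under pan-leukocyte scaling in Ly6C, and -1.07 and -0.56 in Ly6G. The S phase genes did not keep a side. Their median minus that of all genes was -0.22 in Ly6C and -0.21 in Ly6G as deposited, and 0.63 and 0.52 under pan-leukocyte scaling. Changes below are as deposited, and each direction between tissues holds relative to that scale only.

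The balance of S phase to mitosis transcripts within a library does not change when the library is scaled by a single factor, apart from the pseudocount. Quantile normalization is not such a scaling, and the balance was not read under it. Mitosis genes had a higher mean level than S phase genes in the Ly6C spleen libraries, with a difference S phase minus mitosis of -0.65, -0.41 and -0.64 on the log2 scale. In Ly6C tumor it was 0.76, 0.76 and 0.68. In Ly6G spleen it was -0.43, -0.33 and 0.02, and in Ly6G tumor 0.85, 0.61 and 0.67. Every tumor library therefore lay above every spleen library. The SD of the 3 values was 0.047 in Ly6C tumor, 0.125 in Ly6G tumor, 0.139 in Ly6C spleen and 0.237 in Ly6G spleen. The geometric mean of FPKM + 1 over the 24 mitosis genes was 22.4 to 24.5 in Ly6C spleen, 8.91 to 13.1 in Ly6G spleen, 9.18 to 10.4 in Ly6C tumor and 6.95 to 7.99 in Ly6G tumor. Ly6C tumor overlapped with Ly6G spleen in that order. For the 13 S phase genes it was 14.3 to 17.3, 8.67 to 9.73, 15.5 to 16.6 and 11.8 to 12.7 in the same groups, so that Ly6C spleen and Ly6C tumor overlapped and Ly6G spleen was lowest.

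**Figure D1:**
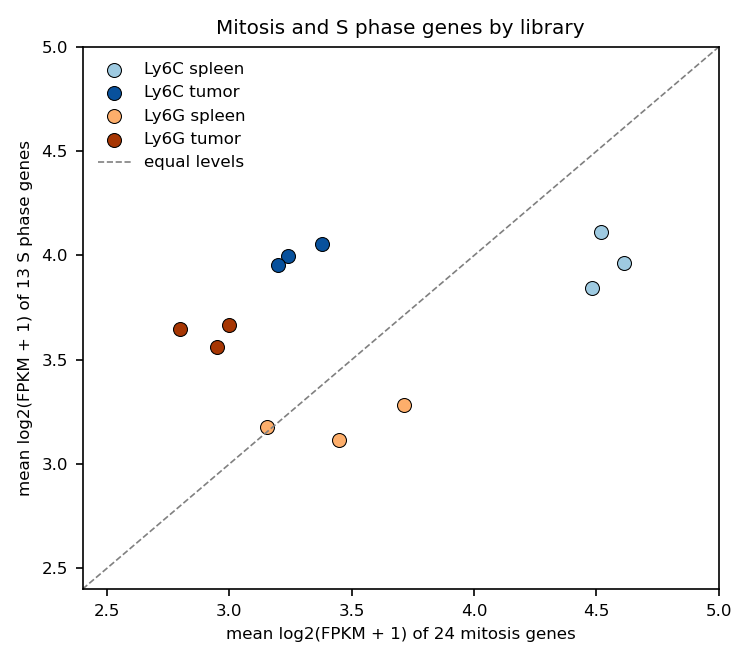
Mean log2(FPKM + 1) of the 24 mitosis genes (x axis) and of the 13 S phase genes (y axis), 1 point per library, coloured by group; the dashed line marks equal levels. All 6 tumor libraries lie above the line by 0.61 to 0.85, and 5 of the 6 spleen libraries lie below it. Scaling a library by a single factor does not change its distance from the line, apart from the pseudocount.

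Single pairs of genes show the same balance. The ratio of Mcm6 to Mki67 FPKM was 0.411 to 0.562 in Ly6C spleen, 0.444 to 0.737 in Ly6G spleen, 4.97 to 7.59 in Ly6C tumor and 4.29 to 5.09 in Ly6G tumor. Subunits of the same helicase also parted. Mcm6 to Mcm7 was 0.622 to 0.802 over the 6 spleen libraries and 2.35 to 2.74 over the 6 tumor libraries. These ratios are descriptions of chosen pairs and were not tested.

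**Figure D2:**
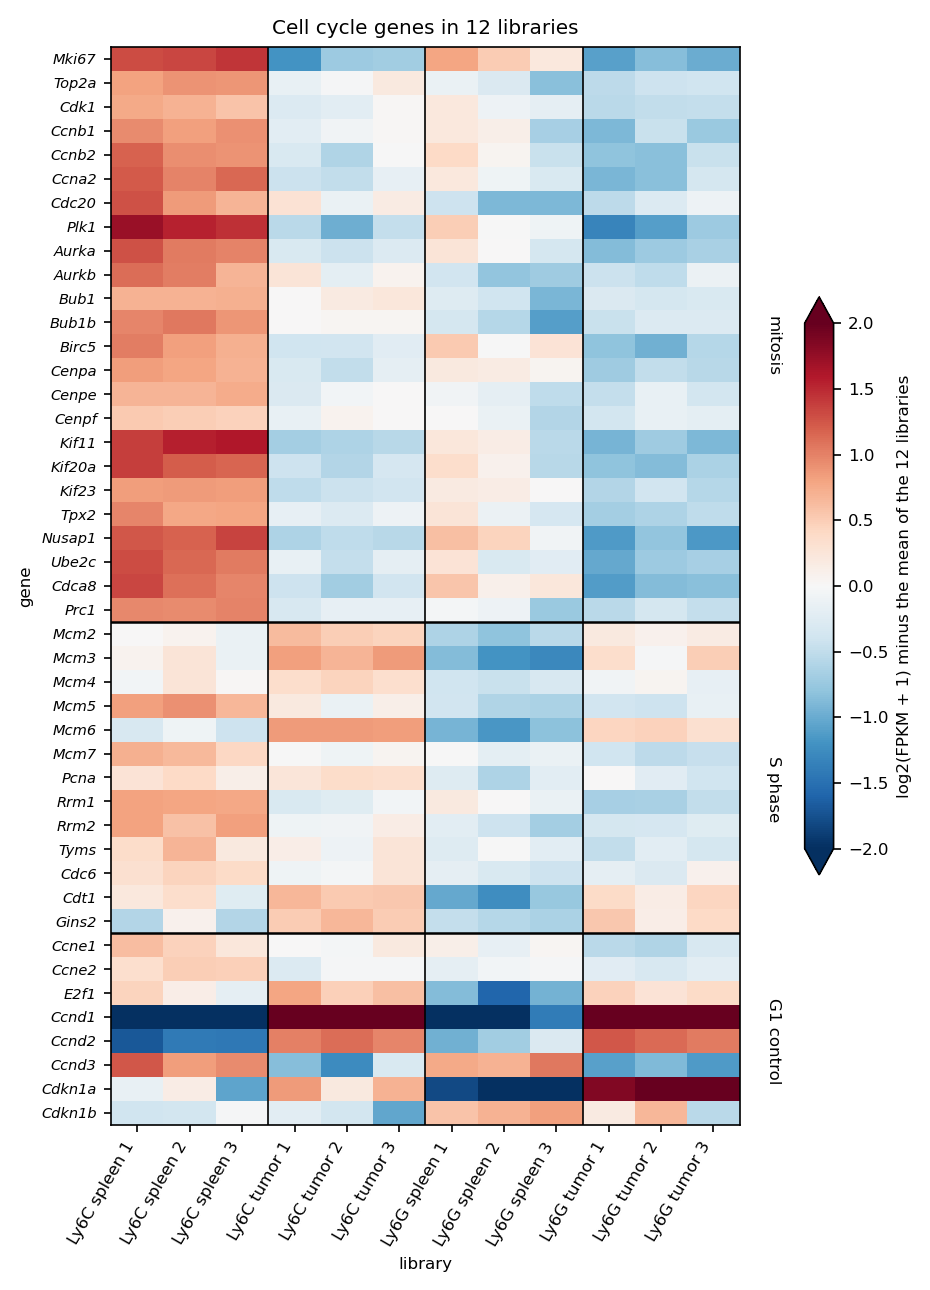
Each row is 1 of the 45 genes, each column 1 of the 12 libraries, and the colour is log2(FPKM + 1) minus that gene's mean over the 12 libraries. The mitosis rows are highest in the 3 Ly6C spleen columns, Mcm6, Ccnd1 and Ccnd2 are higher in all 6 tumor columns than in any spleen column, and values are FPKM as deposited (rescaled to pan-leukocyte genes, all 45 genes are higher in tumor).

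The first comparison set the Ly6C libraries from tumor against those from spleen. All 24 mitosis genes fell, whereas the S phase genes split into 6 that rose and 5 that fell, and the D cyclins exchanged places. Of the 45 genes 10 rose, where 46.2% of all genes tested rose, and 32 fell, where 30.5% fell. Without Ly6C spleen replicate 3 the rises numbered 6. Their median change was -0.83. By class it was -1.18 for mitosis, 0.05 for S phase and 0.11 for G1 control, against 0.27 for all genes. Rescaled to pan-leukocyte genes, all 24 mitosis genes rose instead; under the other 4 scalings all 24 fell.

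Plk1, the kinase that drives entry into mitosis and spindle assembly, was 77, 67.7 and 63.6 FPKM in Ly6C spleen and 15.3, 11 and 15.9 in Ly6C tumor, a change of -2.24 ± 0.20 (limma adjusted p = 8.6e-07). Mki67, whose product coats mitotic chromosomes and serves as a label of cycling cells, was 30.2, 30.9 and 33.3 FPKM in spleen and 4.53, 6.71 and 6.84 in tumor (-2.23 ± 0.17, limma adjusted p = 1.88e-07). Kif11, the motor that pushes spindle poles apart, was 27.3, 30.9 and 31.9 and 5.78, 6.07 and 6.35 (-2.13 ± 0.18, limma adjusted p = 4.02e-07). In these genes the lowest spleen library lay more than 3 times above the highest tumor library. Nusap1, a spindle microtubule binder, also fell (-1.82 ± 0.17), as did Kif20a (-1.70 ± 0.19) and Kif23 (-1.28 ± 0.10), motors of the central spindle, and Cdca8 (-1.63 ± 0.15), of the chromosomal passenger complex. The other passenger genes fell less, by -1.19 ± 0.15 for Birc5 and -0.90 ± 0.17 for Aurkb, the kinase of that complex. Of the exonic bases of Kif20a 29.3% overlap Cdc23 on the other strand, and use of strand in counting is not given. Cdc23 was 1.91 to 3.9 FPKM over the 12 libraries. For Ube2c the overlap is 22.8%, with Tnnc2, which was at most 0.394 FPKM.

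The smallest falls were those of 2 genes. Bub1, a checkpoint kinase, changed by -0.56 ± 0.15, and Cenpf, a kinetochore protein, by -0.52 ± 0.14. Cenpf was the mitosis gene of lowest mean level, at 4.24, 4.11 and 3.97 FPKM in spleen and 2.28, 2.79 and 2.66 in tumor. The gene of highest mean level was Cdc20, which activates the anaphase-promoting complex, at 112, 84.2 and 74.3 FPKM in spleen and 56.1, 41.7 and 51.6 in tumor (-0.83 ± 0.19). Both fell without overlap of the groups. Between these lay Ccna2 (-1.49 ± 0.17), Aurka (-1.43 ± 0.15), Ube2c (-1.43 ± 0.17), Ccnb2 (-1.30 ± 0.22), Prc1 (-1.18 ± 0.16), Cenpa (-1.10 ± 0.11), Tpx2 (-1.03 ± 0.14), Ccnb1 (-0.99 ± 0.21), Bub1b (-0.95 ± 0.16), Top2a (-0.85 ± 0.16), Cdk1 (-0.83 ± 0.13) and Cenpe (-0.81 ± 0.14). They encode mitotic cyclins and their kinase, spindle, kinetochore and checkpoint proteins, topoisomerase and a ubiquitin-conjugating enzyme of anaphase.

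The MCM helicase, a ring of Mcm2 to Mcm7 that unwinds DNA, did not move as a unit in Ly6C. Mcm6 was 14.6, 17.4 and 13.7 FPKM in spleen and 34.4, 34.3 and 34 in tumor (1.12 ± 0.12, limma adjusted p = 3.59e-06). Mcm3 was 25.8, 29.5 and 22.3 and 44, 40.1 and 45.1 (0.72 ± 0.16). The tumor values of Mcm6 differed from each other by less than 1 FPKM. Mcm2 (0.54 ± 0.11) and Mcm4 (0.31 ± 0.11) also rose, whereas Mcm5 (-0.74 ± 0.13) and Mcm7 (-0.61 ± 0.11) fell. The loading factor Cdt1 rose (0.47 ± 0.17) and its partner Cdc6 fell (-0.34 ± 0.13). Gins2, part of the complex that activates the helicase, rose (0.92 ± 0.17). Of its exonic bases 67.3% overlap Gse1 on the other strand, and whether the authors counted by strand is not given in the sources used here. Gse1 itself was 8.83, 8.0 and 7.72 FPKM in Ly6C spleen and 10.5, 9.96 and 10 in Ly6C tumor. Both subunits of ribonucleotide reductase, which makes deoxynucleotides, fell, Rrm1 by -0.99 ± 0.11 and Rrm2 by -0.74 ± 0.14.

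Pcna, the sliding clamp and the S phase gene of highest mean level, was 62.7, 68.9 and 56.3 FPKM in Ly6C spleen and 61.5, 67.1 and 65.5 in Ly6C tumor, and did not pass (0.05 ± 0.14, limma adjusted p = 0.763). Tyms, thymidylate synthase and the lowest of the class, was 2.82, 3.74 and 2.37 and 2.22, 1.76 and 2.51 (-0.32 ± 0.15, limma adjusted p = 0.0652). The groups overlapped for both. Under the 4 scalings other than pan-leukocyte, 2 to 4 S phase genes rose and 6 fell, and Mcm4 changed by -0.06 when S100a8 and S100a9 were removed before rescaling. The calls of Mcm4, Cdc6 and Cdt1 were lost on leaving out single libraries (limma adjusted p = 0.0573 to 0.114 where lost), among Ly6C spleen replicates 1, 2 and 3 and Ly6C tumor replicates 1 and 2.

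**Figure D3:**
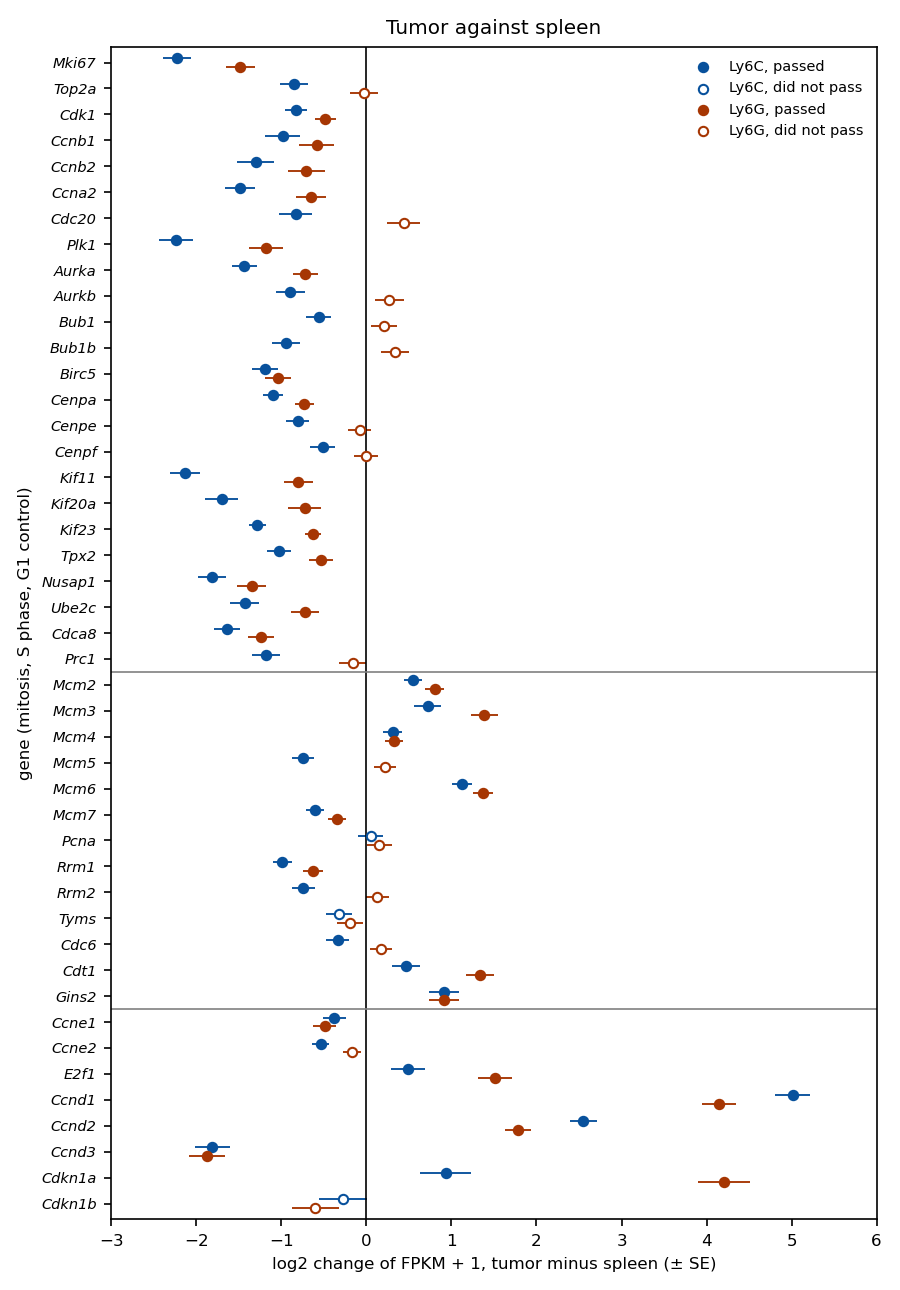
Change of log2(FPKM + 1), tumor minus spleen, ± SE for each of the 45 genes in Ly6C and in Ly6G; filled points passed at a limma adjusted p under 0.05. Most mitosis points lie left of 0 and further left in Ly6C, while Ccnd1 lies at 5.01 and 4.14; under pan-leukocyte scaling all points lie right of 0.

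The same comparison was made for Ly6G libraries. Here 16 of the 24 mitosis genes fell and none rose, and 6 S phase genes rose and 2 fell. Cdkn1a had the largest rise of the 45 on the log2(FPKM + 1) scale, which understates the change of Ccnd1. Mean FPKM went from 7.45 in Ly6G spleen to 150 in Ly6G tumor for Cdkn1a and from 1.23 to 37.1 for Ccnd1. Over the list 10 genes rose, against 51.5% of all genes tested, 20 fell, against 24.7%, and 15 did not pass, where 76.2% of all genes passed in either direction. The median change was -0.17, with -0.64 for mitosis, 0.22 for S phase and 0.67 for G1 control, against 0.43 for all genes. The direction depends on the scaling. With an equal FPKM sum per library (TPM scale) 18 genes rose and 13 fell, of the mitosis genes 4 and 11, and rescaled to pan-leukocyte genes all 45 rose.

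Mki67 was 20.9, 17.1 and 13.7 FPKM in Ly6G spleen and 4.96, 6.02 and 5.39 in Ly6G tumor (-1.48 ± 0.17, limma adjusted p = 6.79e-06). Nusap1 was 11.6, 10.3 and 6.88 and 2.77, 3.83 and 2.73 (-1.35 ± 0.17, limma adjusted p = 1.45e-05). In both genes each tumor library was below each spleen library, and Ly6G spleen replicate 3 was the lowest of its group. Cdca8 (-1.24 ± 0.15), Plk1 (-1.18 ± 0.20) and Birc5 (-1.04 ± 0.15) followed. The fall was smaller for Kif11 (-0.80 ± 0.18), Kif20a (-0.73 ± 0.19), Cenpa (-0.73 ± 0.11), Aurka (-0.72 ± 0.15), Ube2c (-0.72 ± 0.17), Ccnb2 (-0.70 ± 0.22), Ccna2 (-0.65 ± 0.17), Kif23 (-0.63 ± 0.10), Ccnb1 (-0.58 ± 0.21), Tpx2 (-0.53 ± 0.14) and Cdk1 (-0.48 ± 0.13). The 8 that did not pass were Cdc20, Bub1b, Aurkb, Bub1, Cenpf, Top2a, Cenpe and Prc1, with changes from -0.16 ± 0.16 for Prc1 to 0.44 ± 0.19 for Cdc20. The groups of Ccnb1 overlapped, and its call was lost without Ly6G spleen replicates 1 or 2, Ly6G tumor replicates 1 or 3, or the library of highest mitochondrial share in each tumor group (limma adjusted p = 0.0549 to 0.0972). That of Ccnb2 was lost without Ly6G spleen replicate 1 (limma adjusted p = 0.0514).

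Each of the 6 S phase genes that rose in Ly6G had also risen in Ly6C. They were Mcm3 (1.39 ± 0.16), Mcm6 (1.37 ± 0.12), Cdt1 (1.34 ± 0.17), Gins2 (0.91 ± 0.17), Mcm2 (0.80 ± 0.11) and Mcm4 (0.32 ± 0.11). Mcm6 went from 9.27, 7.73 and 10.1 FPKM in spleen to 25.3, 25.9 and 23.4 in tumor, and Mcm3 from 13.1, 10.1 and 9.47 to 31.7, 24.1 and 34.9. No tumor value of either gene overlapped with spleen. Rrm1 (-0.63 ± 0.11) and Mcm7 (-0.34 ± 0.11) fell. Rrm2 (0.13 ± 0.14), Mcm5 (0.22 ± 0.13), Pcna (0.15 ± 0.14), Cdc6 (0.17 ± 0.13) and Tyms (-0.19 ± 0.15) did not pass. Pcna was 43.3, 33.5 and 44.6 FPKM in spleen and 52.1, 44.1 and 38.9 in tumor, and Tyms 1.47, 1.94 and 1.54 and 1.09, 1.55 and 1.32, with overlap in each. Gse1, the gene that overlaps Gins2, was 2.91, 3.74 and 5.4 FPKM in Ly6G spleen and 19.6, 18.1 and 16.1 in Ly6G tumor. The change of Mcm4 was -0.18 under median-of-ratios scaling, and its call was lost without Ly6G spleen replicate 2 or Ly6G tumor replicate 2 (limma adjusted p = 0.0525 and 0.0696). The call of Mcm7 was lost without Ly6G spleen replicate 1 (limma adjusted p = 0.0528).

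Among the G1 control genes the D cyclins, which pair with Cdk4 and Cdk6 to start the cycle, changed between tissues in both labels. Ccnd1 was 0.161, 0.539 and 0.263 FPKM in Ly6C spleen and 40.2, 43.9 and 39.9 in Ly6C tumor (5.01 ± 0.20, limma adjusted p = 1.16e-09). In Ly6G it was 0.706, 0.878 and 2.1 in spleen and 41.6, 36.7 and 33 in tumor (4.14 ± 0.20, limma adjusted p = 6.4e-09). Tumor libraries of both labels thus held similar levels, and Ccnd1 passed the filter on low values through them. Of its exonic bases 23.4% overlap another gene on the opposite strand. Ccnd2 was 0.463, 0.763 and 0.745 FPKM in Ly6C spleen, 8.54, 9.23 and 8.27 in Ly6C tumor, 1.42, 1.91 and 2.86 in Ly6G spleen and 10.1, 9.33 and 8.65 in Ly6G tumor, with changes of 2.55 ± 0.16 and 1.78 ± 0.16. Ccnd3 went the other way, from 42.3, 31.9 and 34.4 FPKM in Ly6C spleen to 9.16, 6.73 and 13.9 in Ly6C tumor (-1.81 ± 0.21, limma adjusted p = 8.18e-06) and from 30, 28.7 and 37.2 in Ly6G spleen to 7.64, 8.95 and 7.38 in Ly6G tumor (-1.87 ± 0.21, limma adjusted p = 6.63e-06). Within a library Ccnd3 made up 88.2% to 98.5% of the summed D cyclin FPKM in spleen and 11.2% to 22.4% in tumor, where Ccnd1 held 64.3% to 73.4%. That share does not change when a library is scaled by a single factor. The summed level itself was 31.5 to 42.9 FPKM in spleen and 49 to 62.1 in tumor.

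The inhibitor Cdkn1a, which stops cyclin-dependent kinases after p53 activation and other signals, separated the labels. It was 9.92, 4.89 and 7.53 FPKM in Ly6G spleen and 136, 153 and 162 in Ly6G tumor (4.20 ± 0.30, limma adjusted p = 1.51e-07). In Ly6C it was 33.4, 40.9 and 17.4 in spleen and 67.6, 42.5 and 60.5 in tumor (0.93 ± 0.30, limma adjusted p = 0.0143). The Ly6C groups come close to each other at 40.9 and 42.5 FPKM, and that call was lost without Ly6C spleen replicate 3 or Ly6C tumor replicate 1 (limma adjusted p = 0.0609 and 0.0568). Cdkn1b, the inhibitor that accumulates in resting cells, was 17.2, 17.6 and 22.6 FPKM in Ly6C spleen, 19.7, 17.5 and 10.7 in Ly6C tumor, 34.7, 38 and 41.5 in Ly6G spleen and 26.2, 36.9 and 15.5 in Ly6G tumor. Its tissue changes did not pass (-0.27 ± 0.28, limma adjusted p = 0.384, and -0.60 ± 0.28, limma adjusted p = 0.0694), and tumor replicate 3 was the lowest in both labels. These were also the libraries with the highest mitochondrial share, 7.84% in Ly6C and 11.9% in Ly6G. The part of that share in the values was not tested.

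E2f1, a transcription factor that activates S phase genes, was 16.5, 13.1 and 10.4 FPKM in Ly6C spleen and 21.2, 16.8 and 18.5 in Ly6C tumor (0.49 ± 0.20, limma adjusted p = 0.0426). The Ly6C call was lost without Ly6C spleen replicates 2 or 3, Ly6C tumor replicates 1 or 3, or any Ly6G tumor replicate (limma adjusted p = 0.0525 to 0.167). In Ly6G it was 6.07, 3.28 and 5.66 in spleen and 16.7, 14.5 and 15.8 in tumor (1.51 ± 0.20, limma adjusted p = 2.72e-05), and each tumor library was more than 2 times above each spleen library. Ccne1, the E cyclin that drives entry into S phase, was 7.12, 6.29 and 5.17 FPKM in Ly6C spleen, 4.3, 4.15 and 5.08 in Ly6C tumor, 4.75, 3.74 and 4.42 in Ly6G spleen and 2.64, 2.49 and 3.22 in Ly6G tumor. It fell in both labels (-0.38 ± 0.13 and -0.49 ± 0.13), in Ly6C with a call that was lost without Ly6C spleen replicate 1 or Ly6C tumor replicates 1 or 2 (limma adjusted p = 0.0639 to 0.0933). Ccne2, the other E cyclin and the lowest of the class, was 2.88, 3.32 and 3.3, 1.55, 2.03 and 2.03, 1.73, 1.98 and 2.05 and 1.64, 1.47 and 1.67 FPKM in the same groups. It fell in Ly6C (-0.54 ± 0.11) and did not pass in Ly6G (-0.17 ± 0.11, limma adjusted p = 0.16). Rescaled to pan-leukocyte genes, these genes too were higher in tumor.

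**Figure D4:**
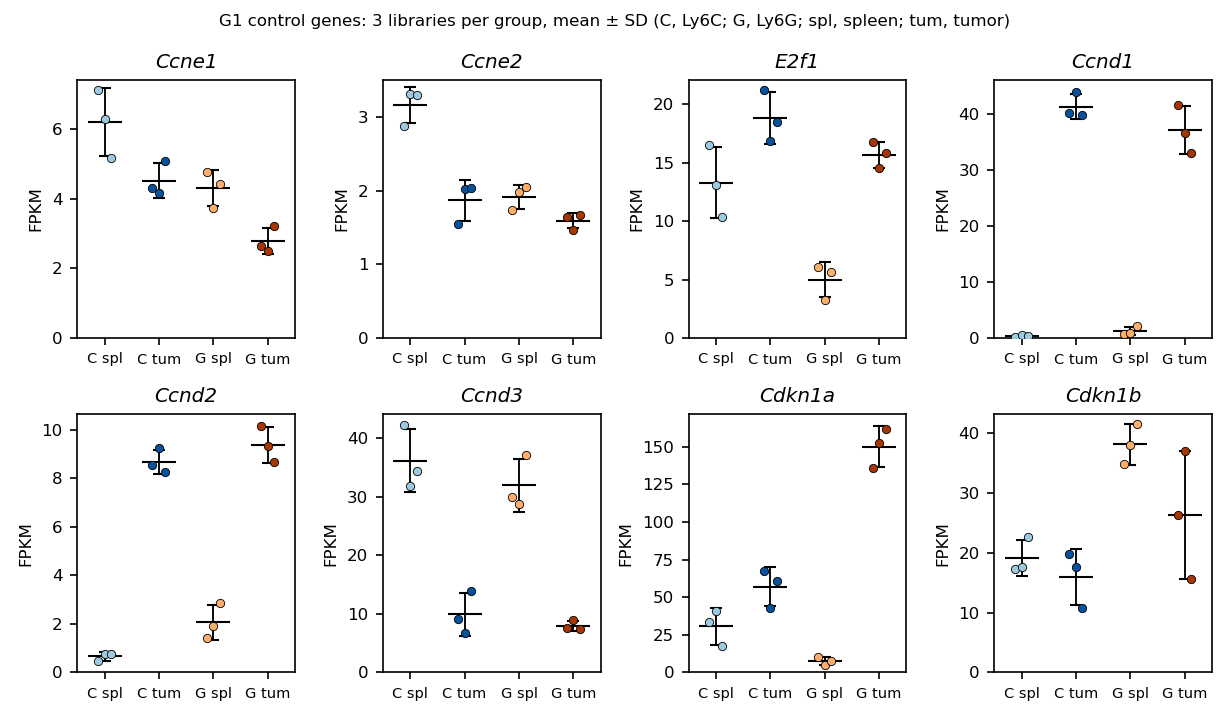
FPKM of the 8 G1 control genes in the 3 libraries of each group (points), with the group mean (horizontal line) ± SD (whiskers), on axes that start at 0. Ccnd1 and Ccnd2 are below 3 FPKM in every spleen library and Ccnd3 is at least 28.7 there, and Cdkn1a reaches 136 to 162 FPKM in Ly6G tumor; values are as deposited, and rescaled to pan-leukocyte genes all 8 genes are higher in tumor.

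The next comparison set the labels against each other within the spleen. Nearly all of the genes were higher in Ly6C spleen than in Ly6G spleen. Of the 45 genes 40 were called higher, where 22.1% of all genes tested were, and 3 lower, where 8.59% were. All 24 mitosis genes were higher (median 1.07), 12 of 13 S phase genes (median 0.70) and 4 of 8 G1 control genes (median 0.30), against a median of 0.11 for all genes. Under pan-leukocyte scaling 8 genes were called higher and none lower (177 of 13610 genes passed in all), with a median of 0.84. No scaling turned the sign of the medians of mitosis or S phase genes.

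Cdkn1a had the largest difference, 1.86 ± 0.30 (limma adjusted p = 0.00103), from the values given above. Cdc20 was 112, 84.2 and 74.3 FPKM in Ly6C spleen and 34.1, 24.2 and 24.3 in Ly6G spleen (1.67 ± 0.19, limma adjusted p = 0.0002). Bub1b, of the spindle checkpoint, was 26.3, 27.7 and 24.4 and 9.85, 8.31 and 5.46 (1.64 ± 0.16, limma adjusted p = 9.53e-05). In all 3 genes the Ly6G values lay below each Ly6C value. Kif11 (1.57 ± 0.18), Aurkb (1.56 ± 0.17), Plk1 (1.44 ± 0.20), Kif20a (1.30 ± 0.19), Top2a (1.28 ± 0.16), Prc1 (1.26 ± 0.16), Ube2c (1.25 ± 0.17) and Bub1 (1.22 ± 0.15) came next among mitosis genes, and Mki67 (0.85 ± 0.17), Kif23 (0.73 ± 0.10), Cdk1 (0.69 ± 0.13), Cenpa (0.63 ± 0.11) and Birc5 (0.59 ± 0.15) were among the smaller differences. The remaining mitosis genes, Ccnb1, Ccnb2, Ccna2, Aurka, Cenpe, Cenpf, Tpx2, Nusap1 and Cdca8, differed by 0.73 ± 0.14 (Cenpf) to 1.18 ± 0.17 (Ccna2).

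Among S phase genes Mcm5 (1.34 ± 0.13), Mcm3 (1.18 ± 0.16), Rrm2 (1.17 ± 0.14) and Cdt1 (1.12 ± 0.17) differed most, and Mcm4 least of those that passed (0.46 ± 0.11). Rrm1 (0.76 ± 0.11), Mcm7 (0.71 ± 0.11), Mcm6 (0.70 ± 0.12), Cdc6 (0.68 ± 0.13), Mcm2 (0.63 ± 0.11), Pcna (0.62 ± 0.14) and Tyms (0.58 ± 0.15) lay between, and Gins2 did not pass (0.20 ± 0.17, limma adjusted p = 0.444). Of G1 control genes E2f1 (1.26 ± 0.20), Ccne2 (0.51 ± 0.11) and Ccne1 (0.43 ± 0.13) were also higher in Ly6C spleen. The 3 genes that were lower there were the inhibitor Cdkn1b (-0.97 ± 0.28, limma adjusted p = 0.0223), Ccnd2 (-0.86 ± 0.16, limma adjusted p = 0.002) and Ccnd1 (-0.71 ± 0.20, limma adjusted p = 0.0198), both D cyclins being below 3 FPKM in every spleen library. Without Ly6C spleen replicate 1 only Ccnd2 of these 3 passed. The call of Cdkn1b was also lost without Ly6C spleen replicate 2 or Ly6G spleen replicates 2 or 3 (limma adjusted p = 0.0532 to 0.0662 over the 4 fits). That of Ccne1 was lost without Ly6C spleen replicates 1 or 2 or Ly6G spleen replicates 2 or 3 (limma adjusted p = 0.0552 to 0.108), and that of Birc5 without Ly6G spleen replicate 2 (limma adjusted p = 0.0501). Ccnd3 did not pass (0.17 ± 0.21, limma adjusted p = 0.598).

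Some lists of markers of other cells moved with this contrast and others did not. Of all genes tested 22.1% were called higher in Ly6C spleen and 8.59% lower. Mature neutrophil genes were lower in Ly6C spleen for 6 of 9 (median -1.21), with a sum of 50643 to 83318 FPKM against 108144 to 139721 in Ly6G spleen. Primary granule genes were higher in Ly6C spleen for 5 of 8 genes, with a sum of 918 to 1225 FPKM against 386 to 527 in Ly6G spleen. Elane was 52.8, 53.8 and 47.2 FPKM against 23.4, 29.7 and 14.6. Erythroid genes were lower for 11 of 11, with a sum of 323 to 1179 against 1481 to 4200 FPKM. B cell genes were lower for 10 of 10 (259 to 400 against 758 to 1317) and T cell genes for 5 of 5 tested (6.02 to 8.2 against 17.4 to 31.1). Monocyte genes were higher for 4 of 8. Secondary granule genes, of the myelocyte stage, did not move together. Of these 9 genes 1 was higher, 1 lower and 7 did not pass (median -0.19). Of 8 macrophage genes 1 was higher and 1 lower, and of 20 pan-leukocyte genes 1 was higher and 2 lower. None of these lists had a gene at 0 in all spleen libraries. Their part in the differences of the cell cycle genes was not tested.

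**Figure D5:**
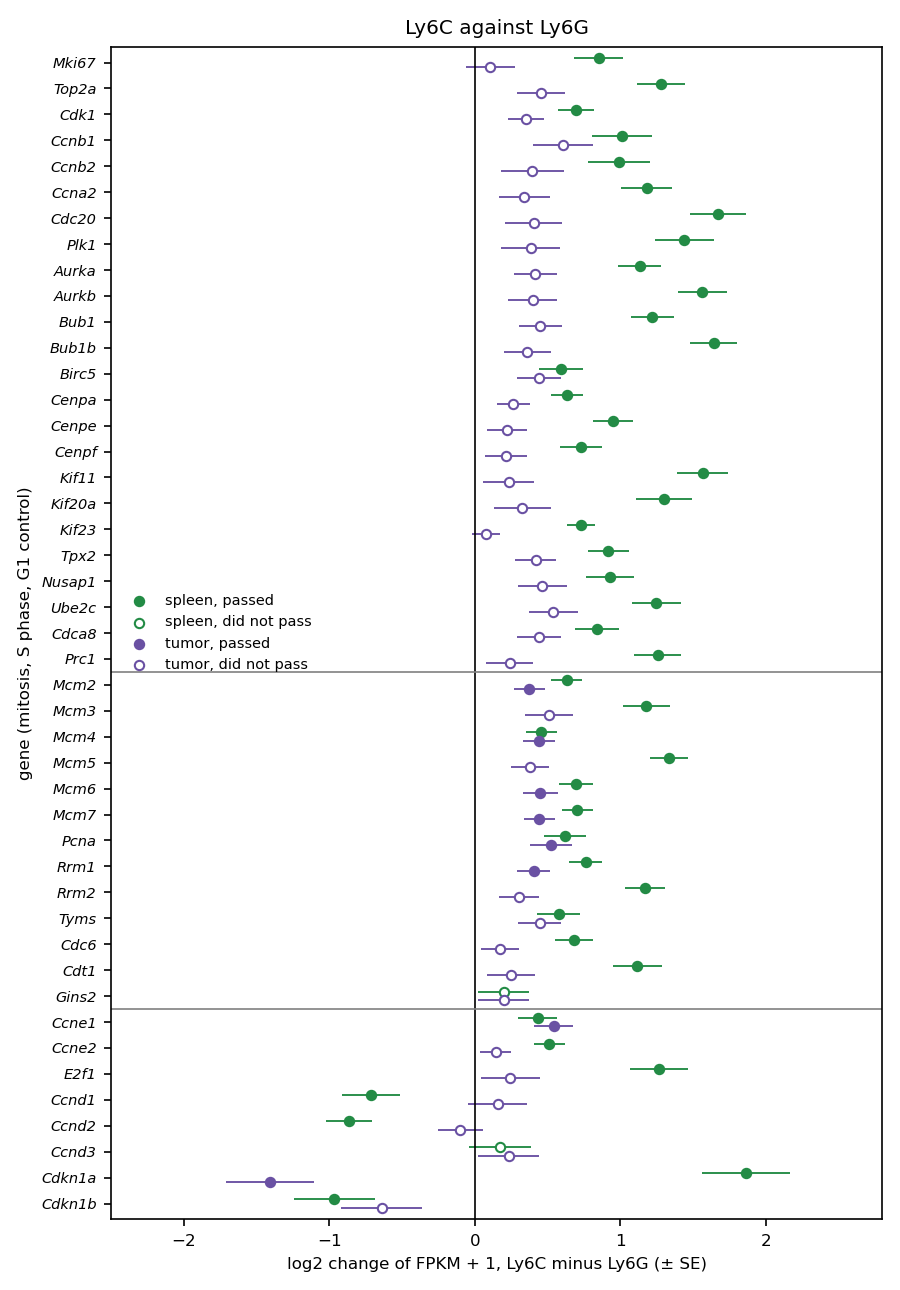
Change of log2(FPKM + 1), Ly6C minus Ly6G, ± SE for each of the 45 genes in spleen and in tumor; filled points passed at a limma adjusted p under 0.05. Spleen points of the 24 mitosis genes lie between 0.59 and 1.67, tumor points of the same genes between 0.07 and 0.61 with none passing, and Cdkn1a lies at 1.86 in spleen and -1.41 in tumor.

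Within the tumor few of these genes were called between the labels. Of the 45 genes 7 were called higher in Ly6C tumor, where 5.8% of all genes tested were, and 1 lower, where 8.7% were. None of the 24 mitosis genes passed. Their changes were 0.07 for Kif23 to 0.61 for Ccnb1 with a median of 0.39, against 0.04 for all genes, and 15 of the 24 were higher without overlap of the groups, where 24.1% of all genes tested were. The median of S phase genes was 0.40, and 11 of the 13 were higher without overlap. Over the 45 genes 42 changes were positive, and 28 genes were higher without overlap, against 24.1% of all genes tested. Under pan-leukocyte scaling 43 genes were called higher and none lower, with the median of all genes at 1.03. On the TPM scale 1 gene was called higher and 1 lower.

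Ccne1 was 4.3, 4.15 and 5.08 FPKM in Ly6C tumor and 2.64, 2.49 and 3.22 in Ly6G tumor (0.54 ± 0.13, limma adjusted p = 0.0239). Pcna was 61.5, 67.1 and 65.5 and 52.1, 44.1 and 38.9 (0.52 ± 0.14, limma adjusted p = 0.0364). Mcm6 was 34.4, 34.3 and 34 and 25.3, 25.9 and 23.4 (0.45 ± 0.12, limma adjusted p = 0.0306). The groups did not overlap in any of the 3 genes, and 4 more genes of S phase passed, Mcm4 (0.44 ± 0.11), Mcm7 (0.44 ± 0.11), Rrm1 (0.40 ± 0.11) and Mcm2 (0.38 ± 0.11). Cdkn1a was the gene called lower, 67.6, 42.5 and 60.5 FPKM in Ly6C tumor against 136, 153 and 162 in Ly6G tumor (-1.41 ± 0.30, limma adjusted p = 0.0137). Each Ly6C tumor value of Cdkn1a lay far below each Ly6G tumor value, and its call was lost without Ly6C tumor replicate 2 or Ly6G tumor replicate 3 (limma adjusted p = 0.0573 and 0.0526). No gene was called higher without any 1 of the Ly6C tumor replicates 1, 2 or 3, and 1 or 2 were without any Ly6G tumor replicate, while 14 were without Ly6G spleen replicate 3. Mature neutrophil genes were lower in Ly6C tumor for 8 of 9, pan-leukocyte genes for 14 of 20. Their part was not tested.

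Whether the tissue change differed between the labels was tested as the difference of the tissue effects, Ly6C minus Ly6G, in the same model. The comparisons share their libraries, so this test restates the 4 groups in another way. It passed for 21 of the 45 genes, 19 lower and 2 higher, where 15.8% and 6.02% of all genes tested passed in those directions. Of the mitosis genes 14 of 24 had a lower tissue change in Ly6C, of S phase genes 3 of 13, and of G1 control genes 2 were lower and 2 higher. The median over the 45 genes was -0.51, against -0.10 for all genes. Under pan-leukocyte scaling the median was 0.63 and only Cdkn1a passed.

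Cdkn1a differed most (-3.27 ± 0.43, limma adjusted p = 0.000855), its 3 libraries per group being those listed above. Kif11 was next (-1.33 ± 0.25, limma adjusted p = 0.00405), with 11.7, 11 and 6.47 FPKM in Ly6G spleen and 4.66, 5.58 and 4.81 in Ly6G tumor beside the Ly6C values above. Bub1b (-1.28 ± 0.23, limma adjusted p = 0.00333) was 12.8, 13.2 and 13.1 FPKM in Ly6C tumor and 9.15, 10.4 and 10.4 in Ly6G tumor. For Bub1b the Ly6C libraries fell and the Ly6G groups overlapped, and Cdc20 (-1.27 ± 0.27) was alike, at 34.1, 24.2 and 24.3 FPKM in Ly6G spleen and 31.6, 37.8 and 42.8 in Ly6G tumor. The other mitosis genes that passed were Aurkb (-1.17 ± 0.24), Plk1 (-1.06 ± 0.28), Prc1 (-1.02 ± 0.23), Kif20a (-0.97 ± 0.27), Ccna2 (-0.84 ± 0.25), Top2a (-0.82 ± 0.23), Bub1 (-0.77 ± 0.21), Mki67 (-0.75 ± 0.24), Cenpe (-0.73 ± 0.20), Aurka (-0.72 ± 0.21) and Kif23 (-0.65 ± 0.14). Those of S phase were Mcm5 (-0.96 ± 0.18), Rrm2 (-0.87 ± 0.19) and Cdt1 (-0.87 ± 0.24), and E2f1 (-1.02 ± 0.28) was the other G1 control gene with a lower value.

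Ccnd1 (0.87 ± 0.28, limma adjusted p = 0.0486) and Ccnd2 (0.77 ± 0.22, limma adjusted p = 0.03) had the higher values, that is a larger rise in Ly6C, and their tumor levels were alike while their spleen levels were lower in Ly6C. Both calls rest on spleen values near the pseudocount and were lost with a pseudocount of 5. Of the 21 calls, 9 passed in each fit that left out libraries, Aurkb, Bub1b, Cdc20, Cdkn1a, Kif11, Kif23, Mcm5, Prc1 and Rrm2. The count of lower calls was 12 without Ly6C tumor replicate 2 and 11 without Ly6G tumor replicate 3. Primary granule genes had a lower tissue change in Ly6C for 4 of 8 and B cell genes a higher one for 6 of 10. Their part was not tested.

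Other genes of the same processes were read from wider lists of 45 mitosis, 44 S phase and 28 G1 control genes that do not include the 45. Of all genes tested 46.2% rose and 30.5% fell between Ly6C tissues, and 51.5% and 24.7% between Ly6G tissues. In spleen 22.1% were higher and 8.59% lower in Ly6C, and in tumor 5.8% and 8.7%. The tissue change was higher in Ly6C for 6.02% and lower for 15.8%. Counts of the 3 lists near these shares are not particular to the lists. As deposited, between Ly6C tissues 3 wider mitosis genes rose and 36 fell (median -1.22; all 45 rose under pan-leukocyte scaling), with Mad2l1, a checkpoint protein, highest (0.95 ± 0.14) and Kif18b, a spindle motor, lowest (-2.06 ± 0.20). In Ly6G 9 rose and 19 fell (median -0.25), with 12 rises and 13 falls on the TPM scale, 5 and 34 with median-of-ratios factors, 4 and 34 with quantile normalization and 45 rises under pan-leukocyte scaling. Mybl2, the MuvB partner that activates mitosis genes, rose there by 1.75 ± 0.11, and Cks2, a subunit of cyclin-dependent kinase complexes, fell (-1.21 ± 0.17). In spleen 43 of 45 were higher in Ly6C and 1 lower. Foxm1, a transcription factor of mitosis genes, was 16.6, 17.1 and 15.7 FPKM in Ly6C spleen against 3.3, 3.86 and 2.68 in Ly6G spleen (2.04 ± 0.11), and the securin Pttg1 was the gene lower there (-1.42 ± 0.24). In tumor 2 were higher, Mad2l1 most (0.53 ± 0.14). The tissue change was lower in Ly6C for 26 and higher for 1, with Foxm1 (-2.14 ± 0.16) and Pttg1 (1.28 ± 0.34) at the ends.

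As deposited, 17 of 44 wider S phase genes rose and 11 fell in Ly6C (median 0.13), which became 12 and 18 with median-of-ratios factors, and 30 rose and 4 fell in Ly6G (median 0.48), which became 17 and 12 with those factors and 13 and 12 (median -0.06) with quantile normalization; the medians of all genes were 0.27 and 0.43. Dut, which removes dUTP, rose in Ly6C (1.64 ± 0.17), and Pola2, a subunit of DNA polymerase alpha, rose in Ly6G (1.78 ± 0.13), while the histone chaperone Asf1b fell in both (-1.49 ± 0.16 and -0.73 ± 0.16). In spleen 31 were higher in Ly6C and none lower, with Fen1, the flap nuclease, at 1.92 ± 0.16. In tumor 9 were higher and none lower, with Dut at 0.60 ± 0.17. The tissue change was lower in Ly6C for 16, with Fen1 at -1.65 ± 0.22. Under pan-leukocyte scaling all 44 rose in both labels, 2 were higher in Ly6C spleen, 43 were higher in Ly6C tumor and 0 tissue changes passed. On the TPM scale the 9 genes higher in tumor became 1 and the 16 lower tissue changes became 26. With quantile normalization 8 tissue changes were lower and 4 higher.

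Of the 28 wider G1 control genes 24 were tested. Between Ly6C tissues 8 rose and 14 fell, and between Ly6G tissues 11 rose and 9 fell, or 8 and 13 with median-of-ratios factors. E2f2, an activating E2F factor, had the largest fall in both, from 104, 91.4 and 105 FPKM in Ly6C spleen to 3.02, 2.57 and 3.2 in Ly6C tumor (-4.68 ± 0.12, limma adjusted p = 3.45e-11) and from 56, 54.1 and 50.4 in Ly6G spleen to 4.0, 5.53 and 4.38 in Ly6G tumor (-3.28 ± 0.12, limma adjusted p = 6.91e-10). As deposited, E2f1 and E2f2 thus moved in opposite directions. Under pan-leukocyte scaling 22 of the 24 genes rose in each label and E2f2 was the gene that still fell (-1.20 ± 0.31 in Ly6C and -0.67 ± 0.31 in Ly6G). E2f5, a repressor of the family, rose most in Ly6C (2.73 ± 0.17), and Cdk4, the partner of the D cyclins, most in Ly6G (2.15 ± 0.22), at 7.07, 6.18 and 10.5 FPKM in spleen and 38.3, 36.9 and 38.3 in tumor. In spleen 11 genes were higher in Ly6C and none lower, with the inhibitor Cdkn2c at 2.16 ± 0.28. In tumor 3 were lower, Mdm2, the p53 ubiquitin ligase, most (-0.68 ± 0.10). The tissue change was lower in Ly6C for 9, with Cdkn2c at -1.72 ± 0.39. Under pan-leukocyte scaling 1 gene was higher in Ly6C spleen, 18 were higher and 0 lower in Ly6C tumor, and 0 tissue changes passed.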

How the data were processed

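Total RNA of 12 mouse samples, 3 per group, was sequenced as paired-end libraries per the labels. HISAT2 2.0.5 and featureCounts 1.5.0-p3 were used on GRCm38 per the submitters' processing notes. The authors deposited 1 matrix of FPKM per gene and library. The tool that computed FPKM, its annotation and its use of strand were not given in the sources used here. Low values times gene length fell within 0.05 of a whole step for 33.5% to 36.2% of values, where 10% would if spread evenly. Steps were seen for only a part of the values, so fragment counts were not recovered and depth is unknown. Of 54674 rows, 570 loci without a gene name (0.463% to 1.04% of FPKM) were left out.

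The 13610 genes that reached 1 FPKM in 3 or more libraries were fitted as log2(FPKM + 1) with limma 3.58.1 in R 4.3.3, with 4 group means, a variance trend, and 8 residual and 3.4 prior degrees of freedom. Tests were two-sided, with Benjamini-Hochberg adjustment over all 13610 genes. The script was tested on simulated data. Members were named all 45; values by library are given for the 3 largest rises and falls per comparison, the highest and lowest gene of each class and all G1 control genes; of wider lists, the largest rise and fall that passed. The members and lists were chosen with earlier results of these data known. Symbols and coordinates came from GENCODE M21 and promoters from RefSeq. Alternatives changed the pseudocount, filter, scaling, samples, block, trend, weights and libraries. Python 3.11.15, pandas 2.3.3, numpy 2.4.6 and matplotlib 3.10.9 were used.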

Additional observations from a re-analysis of the deposited data

Results flagged for a closer look

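For 21 of the 45 genes the change from spleen to tumor differed between Ly6C and Ly6G by the test of that difference in limma (adjusted p under 0.05), and each is given as the log2 difference of the tissue effects, Ly6C minus Ly6G. Among mitosis genes it was -1.33 for Kif11, -1.28 for Bub1b, -1.27 for Cdc20, -1.17 for Aurkb, -1.06 for Plk1, -1.02 for Prc1, -0.97 for Kif20a, -0.84 for Ccna2, -0.82 for Top2a, -0.77 for Bub1, -0.75 for Mki67, -0.73 for Cenpe, -0.72 for Aurka and -0.65 for Kif23. Among S phase genes it was -0.96 for Mcm5 and -0.87 for both Rrm2 and Cdt1. Among G1 control genes it was -3.27 for Cdkn1a, -1.02 for E2f1, 0.87 for Ccnd1 and 0.77 for Ccnd2. In each of these 14 mitosis genes all 3 Ly6C spleen libraries stood above the other 9 libraries. Groups of 3 libraries are too small for a check of single libraries that stand apart.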

How the results depend on the processing

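Rescaling to the pan-leukocyte genes changed most results. In Ly6C tumor against spleen it called 45 of the genes higher and 0 lower, in Ly6G 45 and 0, in Ly6C against Ly6G spleen 8 and 0, in tumor 43 and 0, and in the difference of the tissue effects 0 and 1. Among genes called as deposited, the log2 changes that changed sign under it were, between Ly6C tissues, Mki67 1.35, Top2a 2.88, Cdk1 2.62, Ccnb1 2.46, Ccnb2 2.47, Ccna2 2.17, Cdc20 2.95, Plk1 1.48, Aurka 2.23, Aurkb 2.63, Bub1 2.88, Bub1b 2.70, Birc5 2.43, Cenpa 2.29, Cenpe 2.53, Cenpf 2.47, Kif11 1.44, Kif20a 1.86, Kif23 2.14, Tpx2 2.59, Nusap1 1.66, Ube2c 2.30, Cdca8 1.84, Prc1 1.94, Mcm5 2.99, Mcm7 3.02, Rrm1 2.42, Rrm2 3.01, Cdc6 2.60, Ccne1 2.86, Ccne2 2.26 and Ccnd3 1.83; between Ly6G tissues, Mki67 1.04, Cdk1 1.82, Ccnb1 1.61, Ccnb2 2.01, Ccna2 1.88, Plk1 1.44, Aurka 1.82, Birc5 1.497, Cenpa 1.54, Kif11 1.60, Kif20a 1.65, Kif23 1.70, Tpx2 1.96, Nusap1 0.98, Ube2c 1.91, Cdca8 1.10, Mcm7 2.18, Rrm1 1.61, Ccne1 1.59 and Ccnd3 0.76; and for the difference of the tissue effects, Mki67 0.31, Top2a 0.29, Ccna2 0.29, Plk1 0.036, Aurka 0.41, Aurkb 0.16, Bub1 0.55, Cenpe 0.50, Kif20a 0.21, Kif23 0.45, Prc1 0.35, Mcm5 0.16, Rrm2 0.22, Cdt1 0.43 and E2f1 0.26. Mcm4 changed sign between Ly6C tissues (-0.060) with an equal sum after removal of S100a8 and S100a9, and between Ly6G tissues (-0.18) with median-of-ratios factors. The median of all genes tested between tissues was 0.23 in Ly6C and 0.82 in Ly6G with equal sums (TPM scale), 0.02 and 0.03 by median-of-ratios, -0.03 and 0.42 without S100a8 and S100a9. Of all genes called between Ly6C and Ly6G spleen, 3002 were higher and 1169 lower as deposited, 1775 and 2367 with median-of-ratios factors and 5541 and 577 on the TPM scale; between Ly6C and Ly6G tumor 790 and 1184 became 80 and 1496 on the TPM scale, and for the difference of the tissue effects 820 and 2152 became 1696 and 1443 with median-of-ratios factors. Between Ly6C tissues 6289 and 4154 became 5064 and 5279 without S100a8 and S100a9, and between Ly6G tissues 7010 and 3357 became 5069 and 5120 with quantile normalization.

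Counts of the 45 genes moved as follows. Between Ly6C tissues 10 rises became 6 with median-of-ratios factors and 4 without S100a8 and S100a9. Between Ly6G tissues 10 rises and 20 falls became 18 and 13 on the TPM scale. Between the labels in tumor, 7 genes higher in Ly6C became 1 with equal sums, 1 after removal of S100a8 and S100a9, 14 when only these groups were fitted, 22 with array weights and 0 without the library of highest mitochondrial share in each tumor group; the gene called lower became 2 with array weights and 0 without those libraries. For the difference of the tissue effects, 2 higher became 0 with a pseudocount of 5, without an expression filter, on the TPM scale and without the libraries of highest mitochondrial share; 19 lower became 11 without an expression filter, 34 with equal sums, 9 by median-of-ratios, 9 with quantile normalization, 33 after removal of S100a8 and S100a9 and 9 without the libraries of highest mitochondrial share. The cause was not tested. A filter at 5 FPKM left out genes of low level, which then have no value, and a fit of only the groups compared cannot give the difference of the tissue effects.

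When each of the 12 libraries was left out in turn, rises between Ly6C tissues numbered 6 to 10 and falls 30 to 33, and between Ly6G tissues 9 to 12 and 17 to 21. Genes higher in Ly6C spleen numbered 38 to 40 and lower 1 to 3, and in tumor 0 to 14 and 0 to 1. The tissue effect was higher in Ly6C for 0 to 2 genes and lower for 11 to 22. The lowest values came without Ly6C spleen replicate 3 (6 rises between Ly6C tissues), Ly6C spleen replicate 1 (1 gene lower in Ly6C spleen), each Ly6C tumor replicate (0 genes higher in Ly6C tumor) and Ly6G tumor replicate 3 (11 lower tissue effects). Of 42, 30, 43, 8 and 21 calls in the 5 comparisons in the order given, 36, 26, 39, 0 and 9 passed in each fit that left out a library or the pair of libraries with the highest mitochondrial share. A gene of few FPKM is limited by depth, which the files do not give.

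With the replicate number as a block, 3 genes rather than 7 were called higher in Ly6C tumor than in Ly6G tumor and 1 rather than 2 had a higher tissue effect in Ly6C; the other counts stayed within 1.5 times. Deviations of same-numbered libraries from their group means correlated at -0.36 to 0.279, not every library correlated best with its own number, and the numbers were not taken as pairs.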
